A study of Homo sapiens with 2 samples.

Results

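GATA2 peaks were examined around 6 genes of the forkhead family of transcription factors in LNCaP, a human prostate cancer line that responds to androgens. The members were chosen by position: a peak counted where its midpoint lay in a fixed window of hg19 around a forkhead gene. The windows were chromosome 14 from 37.56 to 38.17 Mb for FOXA1 with its neighbour MIPOL1, chromosome 20 from 22.46 to 22.67 Mb for FOXA2, chromosome 12 from 2.86 to 3.09 Mb for FOXM1, chromosome 13 from 41.02 to 41.35 Mb for FOXO1, chromosome 6 from 108.78 to 109.11 Mb for FOXO3, and chromosome 3 from 70.90 to 71.74 Mb for FOXP1. They held 64 of the 36797 GATA2 peaks of the deposited list, or 0.174%. Other genes lie beside the forkhead genes, and no peak was assigned to a gene. Binding was measured by chromatin immunoprecipitation and sequencing (ChIP-seq) with an antibody against GATA2 in 2 replicate samples of 1 group. The cells, at passages 32 to 34, had spent 3 days in 5% charcoal-treated serum, and such serum carries little steroid hormone. No input, untreated or other control sample was used here. The list carries no value for a single replicate and no read counts, so the spread between replicates and the sequencing depth are unknown and no value below has a test over samples. Each peak has the authors' own score from the peak caller, which runs from 80.01 to 3100 and was used only to rank and describe peaks within this list.

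Forkhead factors share a winged-helix DNA-binding domain. FOXA1 and FOXA2 are pioneer factors, able to bind closed chromatin and open it for other proteins. In prostate epithelium FOXA1 acts beside GATA2 and the androgen receptor at many of the same enhancers, and FOXA2 is known from neuroendocrine prostate tumours and from liver and gut. FOXM1 drives genes of mitosis. FOXO1 and FOXO3 are growth-restraining factors that the kinase AKT keeps out of the nucleus. FOXP1 is a transcriptional repressor at many genes and lies in a region of chromosome 3 that is deleted in some prostate tumours. The MIPOL1 region beside FOXA1 is known to hold distant enhancers of FOXA1, and in LNCaP a copy of the ETV1 locus is known to have been inserted there. The peaks are placed on the hg19 reference, which does not contain that insertion.

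Promoter sequences are shown as background on the members, since they are the stretches where these genes start. They place no peak. RefSeq promoters of GRCh38.p14, each covering 250 bases before to 50 bases after a start site, were found for 4 of the 6 members: 1 for FOXA1, 1 for FOXO1, 4 for FOXO3 and 6 for FOXP1. FOXA2 and FOXM1 were not matched. These positions belong to a different build from the peaks and were not joined with them. Both strands were searched for GATA, the core of the GATA factors' recognition sequence, for its longer form AGATAA, and for the forkhead sequences TGTTTAC and TGTTTGC. The 4 promoters shown are that of FOXA1, whose gene has a stated hg19 position, the FOXP1 promoter with the TGTTTAC match, the FOXP1 promoter with the most GATA matches, and the FOXO3 promoter with the most. They lie at chr14:37595200-37595499 on the minus strand, chr3:71245028-71245327 on the minus strand, chr3:71132148-71132447 on the minus strand and chr6:108588523-108588822 on the plus strand. All are written 5′ to 3′ along the gene, and capitals mark the matches (GATA reads TATC, and TGTTTGC reads GCAAACA, when the match is on the opposite strand).
FOXA1 promoter: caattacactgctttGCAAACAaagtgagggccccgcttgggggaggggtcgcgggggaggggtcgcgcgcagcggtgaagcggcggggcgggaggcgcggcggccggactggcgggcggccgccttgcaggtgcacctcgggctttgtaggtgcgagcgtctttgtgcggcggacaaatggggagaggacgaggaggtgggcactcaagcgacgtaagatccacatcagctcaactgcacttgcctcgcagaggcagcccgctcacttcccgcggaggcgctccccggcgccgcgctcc
FOXP1 promoter with TGTTTAC: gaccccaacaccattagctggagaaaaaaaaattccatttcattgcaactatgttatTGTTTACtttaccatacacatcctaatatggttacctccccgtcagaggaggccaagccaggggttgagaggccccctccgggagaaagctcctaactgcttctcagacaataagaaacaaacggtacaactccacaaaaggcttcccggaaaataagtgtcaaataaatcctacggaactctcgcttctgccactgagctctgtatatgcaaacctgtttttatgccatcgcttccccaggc
FOXP1 promoter with GATA: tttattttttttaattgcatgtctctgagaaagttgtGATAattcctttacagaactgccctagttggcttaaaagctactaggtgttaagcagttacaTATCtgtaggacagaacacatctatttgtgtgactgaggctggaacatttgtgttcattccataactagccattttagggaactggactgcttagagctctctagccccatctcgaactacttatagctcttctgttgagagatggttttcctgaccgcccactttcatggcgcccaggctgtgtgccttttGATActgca
FOXO3 promoter with GATA: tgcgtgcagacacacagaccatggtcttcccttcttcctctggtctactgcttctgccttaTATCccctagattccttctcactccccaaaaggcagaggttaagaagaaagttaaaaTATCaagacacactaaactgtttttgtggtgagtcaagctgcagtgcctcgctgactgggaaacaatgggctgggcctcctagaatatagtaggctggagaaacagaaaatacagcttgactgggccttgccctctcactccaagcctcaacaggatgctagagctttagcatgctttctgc

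The FOXA1 promoter held TGTTTGC once, at position -235 relative to the start site, and no GATA. GATA was present in 5 of the 12 promoters of the members, against 49.7% of the 35116 promoters in the table, so the members' share was not far from the background. AGATAA was in 0 of the 12, against 10.3% of all promoters. TGTTTAC was in 1 of the 12 and in 3.42% of all, and TGTTTGC was in 1 of the 12 and in 3.89% of all. AGATAA contains GATA, so those counts are not separate. A match is a run of letters and not a binding site. The sequences under the peaks themselves were not analysed here.

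The windows together held more GATA2 peaks per Mb than the list as a whole, and FOXA1 with MIPOL1 supplied 27 of the 64 peaks. Over 2.55 Mb the 6 windows had 25.1 peaks per Mb (exact Poisson 95% interval 19.3 to 32.0), against 12.8 per Mb over the 2870 Mb of usable chromosome length of the whole list, which is 1.96 times that density (95% interval 1.51 to 2.50). Without FOXA1 the other 5 windows had 37 peaks, or 19.1 per Mb, which is 1.49 times the density of the list (95% interval 1.05 to 2.05). The intervals cover counting only. Peaks are not replicates and lie closer together than independent events would, so the true uncertainty is wider. The windows were placed on genes, whereas the density of the list covers all usable length, with or without genes. Windows around other genes were not counted here, so whether the excess is particular to forkhead genes was not tested. The windows were also chosen with earlier results of these data known. The intervals here and below are therefore descriptions and no test of an excess.

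The genes differed in how many peaks lay around them. The FOXA1 window had 44.3 peaks per Mb (95% interval 29.2 to 64.4), 3.45 times the density of the list. The FOXO1 and FOXO3 windows had 8 peaks each, or 24.2 per Mb (95% interval 10.5 to 47.8), 1.89 times that of the list. The FOXP1 window had 18 peaks, or 21.4 per Mb (95% interval 12.7 to 33.9), 1.67 times that of the list. The FOXA2 window had 2 peaks, or 9.52 per Mb (95% interval 1.15 to 34.4), and the FOXM1 window had 1, or 4.35 per Mb (95% interval 0.110 to 24.2). In order of density FOXA1 came first, with an interval that lies above the 12.8 per Mb of the list. FOXO1, FOXO3 and FOXP1 came next with near-equal values, then FOXA2 and FOXM1, and the interval of each of these 5 includes the density of the list. Counted on the better-scoring 50% of the list alone, FOXO3 stood at 0.95 and FOXA2 at 1.49 times its density, so neither kept its side of the list, while FOXA1 stood at 4.35 times. On the best-scoring 10% alone FOXA1 stood at 3.84 times and FOXO3 at 4.73 times, from 3 and 2 peaks, and the FOXA2, FOXM1, FOXO1 and FOXP1 windows held no peak.

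**Figure D1:**
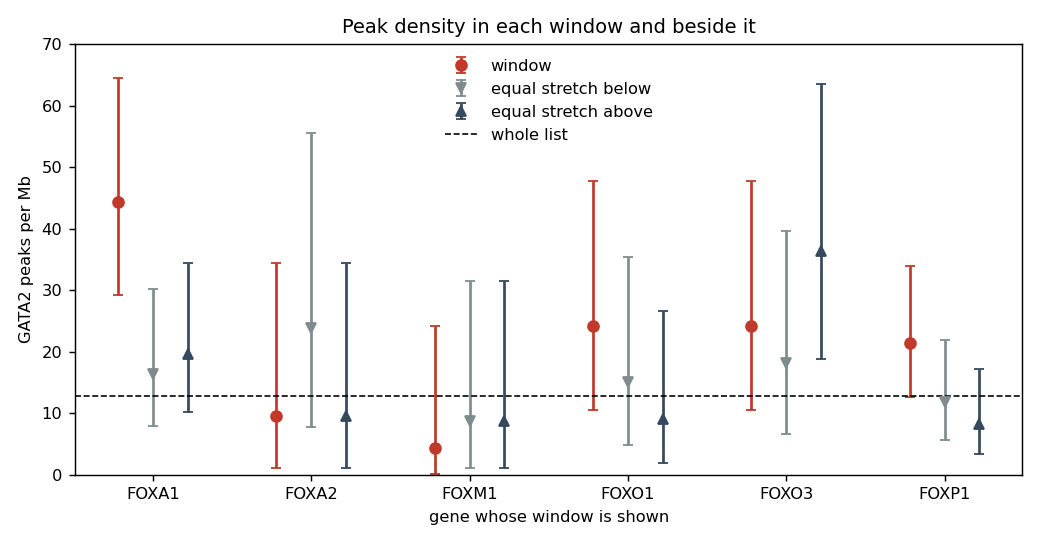
GATA2 peaks per Mb (y axis) in the window of each gene and in stretches of the same length directly below and above it on the chromosome, with exact Poisson 95% intervals; the dashed line is the whole list at 12.8 per Mb. FOXA1 stands at 44.3 per Mb with flanks at 16.4 and 19.7, whereas the stretch above FOXO3 is denser than the FOXO3 window itself.

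The surroundings of the windows were counted in the same way. The stretches of equal length beside the FOXA1 window held 10 peaks below it and 12 above it, or 16.4 per Mb (95% interval 7.86 to 30.2) and 19.7 per Mb (95% interval 10.2 to 34.4), and chromosome 14 as a whole had 14.5 per Mb. The intervals of these flanks overlap that of the window at its lower end. The FOXP1 window held 18 peaks, with 10 in the stretch below and 7 in the stretch above. The FOXO1 window held 8, with 5 below and 3 above. The FOXO3 window held 8, with 6 below and 12 above, so the neighbourhood of FOXO3 was denser on its upper side (36.4 per Mb) than the FOXO3 window itself. The FOXA2 window held 2, with 5 below and 2 above, and the FOXM1 window held 1, with 2 on each side.

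FOXA1, the pioneer factor, had GATA2 peaks over most of its window and none listed inside the gene. The stated span of FOXA1 is 38.058 to 38.064 Mb, given to the nearest kb, and no listed peak lay inside it. FOXA1 is read from the minus strand, so its start is the upper end of the span. The nearest peak, at chr14:38070292-38070638, began 6.3 kb beyond that end, on the upstream side, was 347 bp wide and scored 185, which is below the median of the list at 212. It was the only peak within 10 kb of the span. At the density of the window, the short span would hold 0.266 peaks and the span with 10 kb on each side 1.15, so the 0 and 1 counted there are close to those numbers. With 50 kb on each side there were 7 peaks, or 66.0 per Mb (95% interval 26.6 to 136), an interval that includes the density of the window. On the other side of the gene the nearest peak ended 21.4 kb away and scored 343. Of the 27 peaks, 22 lay below the span, toward MIPOL1, over 498 kb, and 5 lay above it, on the side of TTC6 in the RefSeq gene order, over 106 kb. The densities on the lower and upper sides were 44.2 and 47.2 peaks per Mb, with intervals of 27.7 to 66.9 and 15.3 to 110.1.

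The 3 highest-scoring GATA2 peaks of the FOXA1 window lay toward MIPOL1. That side held 498 kb of the window and 22 of its 27 peaks, against 106 kb and 5 peaks above the span. The peak at chr14:38016077-38016739 scored 1082, was 663 bp wide and lay 41.6 kb below the FOXA1 span by its centre. It stood within the best-scoring 2.73% of the list and ranked 45th among the 1276 peaks of chromosome 14. The second, at chr14:37886941-37887834, scored 713, was 894 bp wide and lay 170.6 kb below the span. The third, at chr14:37775454-37776038, scored 707, was 585 bp wide and lay 282.3 kb below it. These 3 were the FOXA1 window's members among the best-scoring 10% of the list, which holds 10.0% of all peaks by construction. In the window that is 11.1% (exact binomial 95% interval 2.35% to 29.2%), a share near the background. Above the span the highest score inside the window was 444, at 46.6 kb. Outside the window, the stretches of equal length below and above it reached scores of 889.5 and 1284.5.

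**Figure D2:**
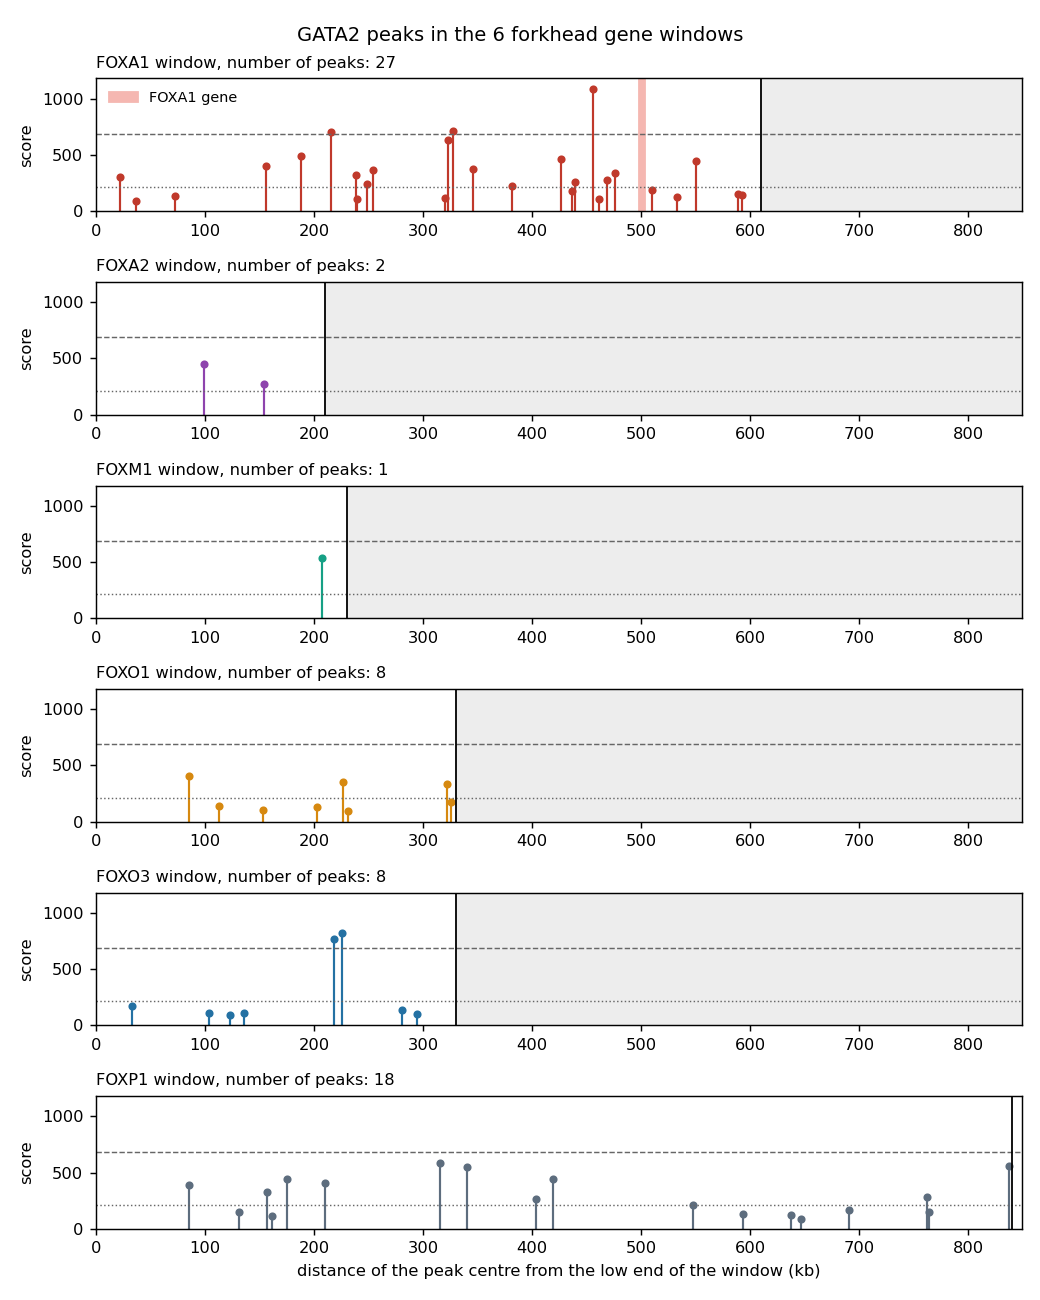
Score of each GATA2 peak (y axis, the authors' score) against the distance of its centre from the low end of its window (x axis, kb), 1 panel for each of the 6 genes; the black line and grey area mark the end of the window, the pink bar is the FOXA1 gene, and the dotted and dashed lines are the median (212) and the 90th percentile (687) of the whole list. Peaks of FOXA1 stand on both sides of the gene but not in it, and the 2 highest peaks of FOXO3 stand side by side.

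The spacing of the FOXA1 peaks goes with their density, since peaks that are 3.45 times as dense as the list have closer neighbours even without any grouping. The shares that follow describe the window and are no finding apart from its density, and no value at matched density was computed. A neighbouring centre within 10 kb was present for 16 of the 27 peaks, or 59.3%, against 33.2% of the list. In the other 5 windows the share was 12 of 37, or 32.4%, near that of the list. Runs, in which 3 or more peaks followed each other at distances of up to 12 kb between centres, held 14 of the 27 FOXA1 peaks, or 51.9%, against 13.7% of the list, and 0 of the 37 peaks in the other windows. There were 4 such runs. The longest, of 20.5 kb at chr14:38016077-38036577, held 4 peaks and lay nearest to FOXA1; its first peak is the highest-scoring of all 64 and its last scored 343. Another run of 4 peaks covered 15.6 kb at chr14:37798362-37813991, with scores of 106 to 367. A run of 3 peaks at chr14:37880594-37887834 covered 7.24 kb and held scores of 633 and 713 beside one of 112, and a run of 3 at chr14:37986761-37999255 had scores of 182 to 466.

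Counted in tiles of 100 kb, the FOXA1 window held 1, 5, 5, 5 and 6 peaks from 37.6 to 38.1 Mb. Tiles with at least 5 peaks, a limit chosen after the counts had been seen, made up 3.07% of the 28658 tiles of the whole list, and 4 of the 5 in the FOXA1 window. These counts go with the density of the window and are no finding apart from it. None of the 15 tiles in the other 5 windows reached that number, and the highest of them was 4, in the FOXP1 window. Tiles with no peak made up 36.6% of the list. Of the 20 tiles in the windows, 1 had none, and it was the only whole tile of the FOXM1 window.

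Several FOXA1 peaks were wide. Peaks over 600 bp, a limit chosen after the widths had been seen, numbered 6 of 27 around FOXA1, or 22.2%, against 2.96% of the list, and 0 of 37 in the other windows. Wider peaks scored higher in the list (Spearman's rho 0.83), and these shares were not matched for score. The widest, 1056 bp at chr14:37905070-37906125, scored 377. Among the 3821 list peaks scoring 300 to 400, which have a median width of 345 bp, only 6 were at least that wide, itself included. The peak at chr14:37798362-37799172 was 811 bp wide at a score of 322, a width reached by 15 of those 3821. These 2 peaks were picked for their width. The other FOXA1 peaks in that score range were 445, 346 and 370 bp wide. Those widths were reached by 11.5%, 49.9% and 32.9% of the 3821. Peaks covered 1.95% of the FOXA1 window, against 0.397% of the usable length for the whole list. The remaining FOXA1 peaks over 600 bp scored 492 to 1082 and were not set beside list peaks of like score. Whether each wide peak joins several sites was not tested.

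**Figure D3:**
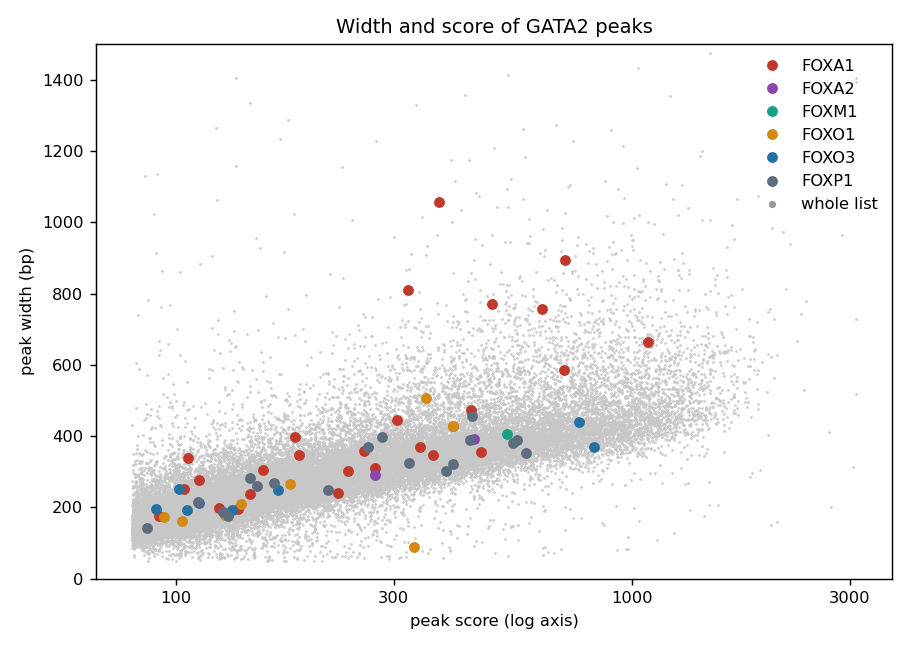
Width in bp (y axis) against score (x axis, log axis) for the 64 window peaks, coloured by gene, and for the whole list in grey; 32 list peaks wider than 1500 bp are not drawn. The 6 window peaks above 600 bp all belong to FOXA1, and the FOXO1 peak of 88 bp lies below the bulk of the list.

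FOXA2, the close relative of FOXA1, had 2 peaks in its window. The peak at chr20:22559142-22559532 was 391 bp wide, scored 449.9 and lay 5.66 kb below the centre of the window. The peak at chr20:22614054-22614343 was 290 bp wide and scored 273. Both scored above the median of the list, and their centres were 54.9 kb apart. Where they lie relative to the exons of FOXA2 was not analysed here.

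FOXM1, the mitotic regulator, had 1 peak, and it was not in the central part of the window. It lay at chr12:3067221-3067626, 22.6 kb from the upper end of the window, was 406 bp wide and scored 531, within the best-scoring 16.1% of the list. The lower 207 kb of the window, 90.1% of its length, held no listed peak. In the RefSeq gene order RHNO1, TULP3 and TEAD4 follow FOXM1 on that side. The next peak centre was 143 kb away above it and 350.3 kb below it. With the window narrowed by 50 kb on each side FOXM1 had no peak. Because the depth is unknown, a stretch with no listed peak cannot be read as unbound.

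The windows of FOXO1 and FOXO3, the AKT-controlled pair, held 8 peaks each, and the 2 highest lay in the FOXO3 window. Around FOXO1 the 8 scores ran from 94.1 to 405 with a median of 158, and 1 peak scored 400 or more (background 24.7%) and none was among the best 10%. Its highest peak, at chr13:41104756-41105183, was 428 bp wide and scored 405. The second, at chr13:41246265-41246770, was 506 bp wide and scored 352. The third, at chr13:41342493-41342580, scored 331 at a width of only 88 bp. Of the 3821 list peaks scoring 300 to 400, 11 were that narrow, and 95% of them were wider than 267 bp. That peak lay 7.46 kb inside the upper end of the window, and a peak scoring 177 lay 4.61 kb inside it. In the RefSeq gene order MRPS31 follows FOXO1 on that side. Which gene these 2 peaks go with was not tested.

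Around FOXO3 most peaks were low and a pair was high. The 8 scores ran from 90.4 to 823 with a median of 122. The peaks at chr6:109005952-109006322 and chr6:108997766-108998206 scored 823 and 765, were 371 and 441 bp wide, and had centres 8.15 kb apart. Both were among the best-scoring 10% of the list, where 4.54% of the 3680 peaks have another such peak within 10 kb. The pair was picked out by these same traits, so that share is given as background and is no test. The other 6 FOXO3 peaks scored 167 or less, all under the median of the list. The third-highest, at chr6:108813417-108813666, scored 167 and was 250 bp wide. The pair lay 61.1 and 53.0 kb above the centre of the window. Between the pair and the next peak below it there was no listed peak over 81.6 kb.

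FOXP1, a long gene read from the minus strand with several start sites, had 18 peaks over 0.84 Mb. Their scores ran from 86.1 to 584 with a median of 273, none was among the best-scoring 10%, and 6 scored 400 or more (33.3%, exact binomial 95% interval 13.3% to 59.0%, against 24.7%). The highest, at chr3:71215611-71215963, was 353 bp wide and scored 584. The second, at chr3:71737270-71737657, was 388 bp wide, scored 559 and lay 2.54 kb from the upper end of the window. In the RefSeq gene order EIF4E3 follows FOXP1 on that side, and which gene this peak goes with was not tested. The third, at chr3:71240042-71240421, was 380 bp wide and scored 547, and its centre was 24.4 kb from that of the highest. Below the centre of the window 10 peaks had a median score of 398 and 5 of them scored 400 or more. Above the centre 8 peaks had a median of 157 and 1 of them, the peak at the upper end, scored 400 or more. Between these groups lay 128 kb with no listed peak, at chr3:71319301-71447750. The lower peak at chr3:71318844-71319300, which scored 445, lay only 0.93 kb below the centre. The split at the centre was not planned, and no test of this difference between the lower and upper part was made. In the FOXA1 window the lower part also had the higher median, 313 against 258. In the FOXO1 and FOXO3 windows the upper part did, with 177 against 138 and 449 against 109.

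**Figure D4:**
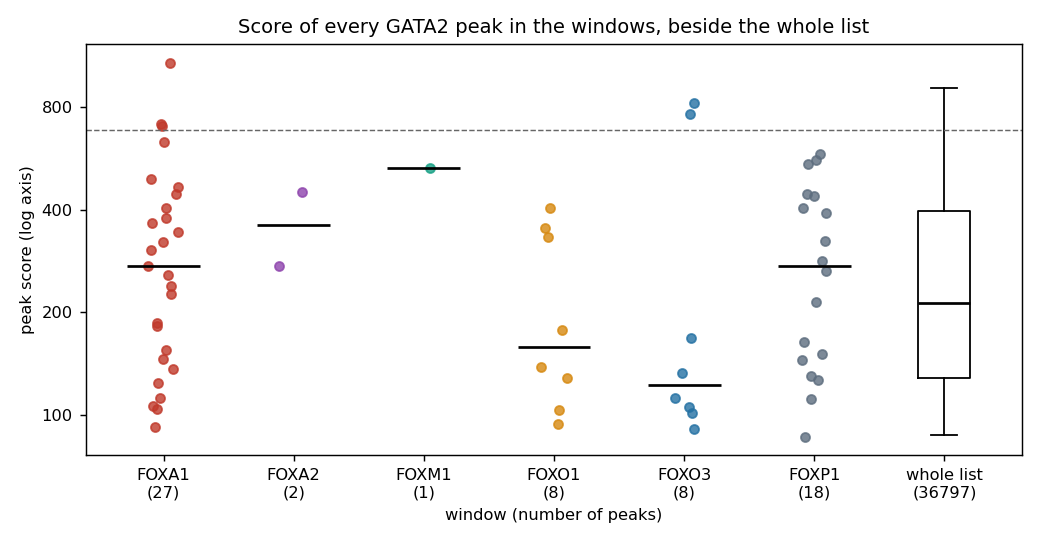
Score of every GATA2 peak (y axis, log axis) in each window, with the median as a black bar, and the whole list as a box of quartiles with whiskers at the 5th and 95th percentiles; the dashed line is the 90th percentile of the list, 687. The 5 window peaks above the line belong to FOXA1 and FOXO3.

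By score the window peaks as a group were close to the list. Their median score was 261 (exact 95% interval 164 to 343), and that of the list was 212 (95% interval 210.2 to 215.0), so the interval includes the value of the list. Of the 64, 5 were among the best-scoring 10% (7.81%, exact binomial 95% interval 2.58% to 17.3%, against 10.0%), 3 around FOXA1 and 2 around FOXO3. Scores of 400 or more were held by 19 (29.7%, 95% interval 18.9% to 42.4%, against 24.7%). Peaks scoring under 100 numbered 4, or 6.25%, against 11.9% of the list. The median width was 318 bp in the windows and 293 bp in the list. Wider peaks scored higher in the windows as in the list (Spearman's rho 0.81 across the 64 peaks and 0.83 across the list, as descriptions, since all peaks come from the same list).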

How the data were processed

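GATA2 ChIP-seq of LNCaP cells was represented by 1 deposited peak list for 2 replicate samples. Per the labels' protocols, libraries were amplified for 16 cycles and selected at about 225 bp. The submitters' processing notes name Bowtie and hg19, and the peak names in the deposited file name MACS as the caller. How a control library, duplicate reads and the replicates entered the call, and the tool versions, is not given in the sources used here. The deposited score per peak has no stated scale and was used only to rank, group and describe peaks within this list.

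Windows came from a rule by gene position. BED starts were made 1-based. Usable length was that from the first to the last peak of each chromosome, less peak-free stretches over 2.5 Mb. Poisson, binomial and median intervals are exact, at 95%, and cover counting only. Counting was tested on simulated lists with planted peaks. A score of 400, near the upper quartile, stood in for the planned class of high scorers, and a 12 kb spacing limit for a slightly longer planned one. The 3 highest-scoring peaks per window, peaks within 10 kb of FOXA1 and the ends of the longest run were named by rule; peaks of the other runs and the 2 wide FOXA1 peaks were named after their values were seen. The windows, members and lists were chosen with earlier results of these data known. Flanks, tiles and width limits were added after seeing the values, and the split of a window at its centre was not planned. No hg19 annotation or sequence was used here, so location in exons or introns and motifs in peaks were not analysed. Python 3.11.15, numpy 2.4.6, pandas 2.3.3, scipy 1.17.1 and matplotlib 3.10.9 were used.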

Additional observations from a re-analysis of the deposited data

How the results depend on the processing

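The density at FOXA1 stayed above that of the list, at 3.19 to 4.35 times it, and that of all windows together at 1.49 to 2.20 times it, under the alternatives run. With the better-scoring 50% of peaks no density left its interval, but FOXA2 stood at 1.49 and FOXO3 at 0.95 times the list, on the other side of 1. FOXA2 stood at 1.42 in windows narrowed by 50 kb on each side. With the best-scoring 10% the density was 0.00 times that of the list for FOXA2, FOXM1, FOXO1 and FOXP1, which have no such peak, and 4.73 times for FOXO3, from 2 peaks. In the narrowed windows FOXM1 stood at 0.00. Leaving out FOXA1 gave 1.49 for the other windows together, against 1.96 with it. The percentage with another centre within 10 kb, recounted among the better-scoring 50%, was 0.00% for FOXO1, 0.00% for FOXP1, 100% for FOXO3 and 25% for all windows, and among the best-scoring 10% it was 0.00% for FOXA1 and 100% for FOXO3. In both subsets FOXO3 kept only its close pair of 2 peaks, which is its 100%. The median position in the best-scoring 10% was 93.0% for FOXA1, from 3 peaks, and 79.6% for all windows. The FOXA1 peaks scoring 713 and 707 lay near the lower limit of that class, 687. The FOXO3 peaks scoring 765 and 823 and the FOXA1 peak scoring 1082 lay further above it. Within 25 kb of FOXA1 there were 2 peaks, against 1 within 10 kb. Of 107 alternative values, the other 91 kept to the reported value's interval (counts, to within 1.5 times). Merging peaks under 500 bp apart, counting any overlap and widening the windows by 50 kb were among these. Counting any overlap changed no count in any window, so its values repeat the reported ones and are no check. Leaving out a replicate could not be run, since replicates have no values of their own, and motif windows in peaks were not run. No paired analysis was possible because the 2 samples form 1 group and share 1 list. Depth is unknown, so missing peaks cannot be read as absence of GATA2.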

Other observations

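The block of 4 adjoining 100 kb tiles with at least 5 peaks at FOXA1 was 1 of 4 such blocks in the whole list, where 782 blocks of at least 1 tile were counted and none was longer than 4. The limit of 5 peaks was chosen after the counts had been seen, and the length of 4 tiles is that of the FOXA1 block. The count of such blocks is therefore a description and no test. With the grid shifted by 50 kb, a setting chosen after seeing the data, the FOXA1 tiles held 2, 5, 5, 7 and 4 peaks, so 3 of 5 reached the limit, against 3.02% of the list. On that grid no block of 4 was found anywhere, and FOXA1 was 1 of 12 blocks of at least 3.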
